A study of Mus musculus with 9 samples.

Results

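The genes described here are 7 genes of cholesterol efflux and lipid carriage, Abca1, Abcg1, Nr1h3, Apoe, Apod, Soat1 and Ch25h, chosen by symbol from the 22337 genes of the deposited table. Each symbol matched 1 row. RNA-seq was carried out on retinas collected at postnatal day 28 (P28), with 3 libraries per group. The groups were WT mice and rd10 mice given either NS or MSC-EVs. WT mice were C57BL/6J and were not treated. Both rd10 groups carried the rd10 allele of Pde6b, a missense mutation in a subunit of the rod phosphodiesterase, and the rods of this mouse degenerate. MSC-EVs-treated animals received extracellular vesicles isolated by ultracentrifugation from mesenchymal stem cells of human umbilical cord and NS-treated animals received normal saline in their place. The dose was 1 μL into the vitreous, in both eyes, with injections at P14 and P21 (1 label field calls the route intravenous). The WT mice were not injected and came from another supplier than the rd10 line, so genotype, injection and source cannot be told apart in a comparison with WT. The labels do not say how many animals went into a library, and p-values measure the spread between these libraries.

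Cells remove surplus cholesterol by handing it to lipid carriers outside the cell. ABCA1 loads cholesterol and phospholipid onto lipid-poor apolipoproteins, and ABCG1 passes cholesterol on to particles that already hold lipid. Apolipoprotein E is a main lipid carrier of the brain and retina and is made largely by glia. The nuclear receptor LXR, in its alpha form (Nr1h3) and beta form (Nr1h2), is switched on by oxysterols and raises transcription of Abca1, Abcg1 and Apoe. SOAT1 stores cholesterol as ester, and CH25H makes 25-hydroxycholesterol.

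The libraries held 19491717 to 62532343 estimated counts, and MSC-EVs replicate 3 was the deepest. MSC-EVs replicates 1 and 2 stood apart by 4 Y-linked genes, with 4379 and 4421 counts in sum. The other 7 libraries had 7 to 23 counts of these genes. The labels give no sex. By these genes MSC-EVs replicates 1 and 2 held male tissue, and the other 7 libraries held little or none. Sex was thus mixed in the MSC-EVs group and not in the others. MSC-EVs replicate 3 therefore differed from replicates 1 and 2 in Y-linked expression and in depth, and results on the MSC-EVs group are given with and without single libraries where that changed them. Pde6b, the mutated gene, was at 2410 to 2610 CPM (counts scaled to library size) in WT and at 450 to 715 CPM in the 6 rd10 libraries. All CPM values here are scaled by the trimmed mean of M-values (TMM).

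Of the 7 genes, Abca1, Apoe, Apod and Ch25h rose by about 4-fold or more in NS-treated rd10 retinas over WT. Soat1 rose slightly and Abcg1 fell slightly. Nr1h3 did not pass the test. In MSC-EVs-treated retinas the same 6 genes passed the test against WT, in the same directions, and none of the 7 differed from NS-treated retinas at an adjusted p under 0.05. These p-values are from edgeR's quasi-likelihood test with Benjamini-Hochberg adjustment over all genes tested. All adjusted p-values below are from it unless another test is named. Over all genes, 61.3% passed in NS against WT, 55.5% in MSC-EVs against WT and 1.16% between the rd10 groups.

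The promoters of Abca1 and Ch25h are shown because these genes had large rises and because RefSeq windows (250 bases before to 50 after the start, GRCm38.p6) hold motifs of factors known to act on such genes. Of the 7 genes, 6 had an entry; Abcg1 had none. The Abca1 window is chr4:53159940-53159969 and the Ch25h window is chr19:34475191-34475220. Both lie on the minus strand and are written 5′ to 3′ along the gene. Capitals in Abca1 mark a direct repeat spaced by 4 bases, the arrangement LXR is known to bind, and capitals in Ch25h mark a cyclic AMP response element.
Abca1: cagcgttTGACCGGTAGTAACCccggcgct
Ch25h: agacggaagggTGACGTCActggggggagt
The Abca1 repeat was found as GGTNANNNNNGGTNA on the other strand, 67 to 53 bases before the start. This pattern was on either strand in 0.718% of 32851 promoter windows. The stricter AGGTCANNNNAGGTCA was in 0.0152% of them and in none of the 6 genes with a window. TGACGTCA in Ch25h was 61 to 54 bases before the start and was in 1.79% of windows. CACGTG, an E-box, was in the Abca1 window and in 7.15% of all windows, and TATAAA was in windows of Abca1, Apoe and Ch25h and in 13.6% of all windows. The 5 patterns were chosen with these sequences in view, and a match describes the letters in the window, not binding.

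Abca1 lies on chromosome 4 from 53030787 to 53159895 on the minus strand (GENCODE M21, GRCm38). It was at 39.6, 46.7 and 41.2 CPM in WT replicates 1, 2 and 3. It was at 178, 173 and 164 CPM in NS-treated rd10 and at 194, 197 and 121 CPM in MSC-EVs-treated rd10. Every rd10 library was above every WT library, and MSC-EVs replicate 3 was the lowest of the 6. Abca1 rose in NS-treated rd10 by a log2 fold change of 2.01 (SE 0.07, 4.03-fold, adjusted p = 1.23e-09). Against WT, the MSC-EVs group had the same log2 fold change, 2.01 (SE 0.22, adjusted p = 0.000694), with a wider error. Between the rd10 groups the log2 difference was -0.01 (95% interval -0.46 to 0.45, adjusted p = 0.992). Leaving out MSC-EVs replicate 3 gave 0.19 (adjusted p = 0.181). With Y-linked expression as a covariate it was -0.5 (adjusted p = 0.0436), a fit in which the rd10 contrast rests mainly on MSC-EVs replicate 3. In bulk retina, fewer or more cells of a type and less or more RNA per cell cannot be told apart.

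Abcg1 lies on chromosome 17 from 31057675 to 31117988 on the plus strand. Its WT libraries held 146, 151 and 151 CPM. NS-treated rd10 held 123, 134 and 112 CPM, and MSC-EVs-treated rd10 held 109, 107 and 103 CPM. The 3 groups did not overlap, with WT the highest and MSC-EVs the lowest. Abcg1 fell by 0.28 on the log2 scale in NS-treated rd10 (SE 0.07, adjusted p = 0.00319) and by 0.48 in MSC-EVs-treated rd10 (SE 0.05, adjusted p = 4.9e-05), both against WT. On the FPKM scale, which scales fragments by transcript length and library size, the difference of NS from WT was -0.12 in limma on log2(FPKM + 1) and missed the threshold (adjusted p = 0.195). Between the rd10 groups the log2 difference was -0.2 (SE 0.08, 95% interval -0.37 to -0.03). It had an unadjusted p of 0.0244 in edgeR's test and an adjusted p of 0.18. In the same comparison 20.2% of all genes had an unadjusted p under 0.05, and 13.3% were lower in every MSC-EVs library than in any NS library.

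The pair of efflux transporters thus moved in opposite directions in rd10. Per length, Abca1 was at 0.148 to 0.175 of the Abcg1 FPKM in the WT libraries. The ratio was 0.731 to 0.828 in NS-treated rd10. It was 0.985, 1.01 and 0.656 in MSC-EVs replicates 1, 2 and 3. Abca1 remained below Abcg1 in all libraries except MSC-EVs replicate 2, where the ratio was 1.01.

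Nr1h3, the gene of LXR alpha, lies on chromosome 2 from 91184061 to 91202834 on the minus strand. It was scarce, with 24 to 116 counts per library. WT libraries were at 1.12, 2.42 and 2.66 CPM. NS-treated rd10 was at 1.65, 1.17 and 2.01 CPM, and MSC-EVs-treated rd10 at 1.25, 1.15 and 1.81 CPM. All 3 groups overlapped. The log2 difference of NS from WT was -0.34 (95% interval -1.06 to 0.37, adjusted p = 0.382), and this interval does not exclude a 2-fold fall. Nr1h2, the gene of LXR beta, was at 48.5, 52.9 and 53.8 CPM in WT and at 43, 34.9 and 45.3 CPM in NS-treated rd10. It fell by 0.33 on the log2 scale (SE 0.09, adjusted p = 0.00738), a call lost in limma on log2(FPKM + 1) (-0.17, adjusted p = 0.21). Per length Nr1h2 was the more abundant LXR gene, at 20.05 to 28.86 FPKM over the 9 libraries against 0.57 to 1.4 FPKM for Nr1h3.

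**Figure D1:**
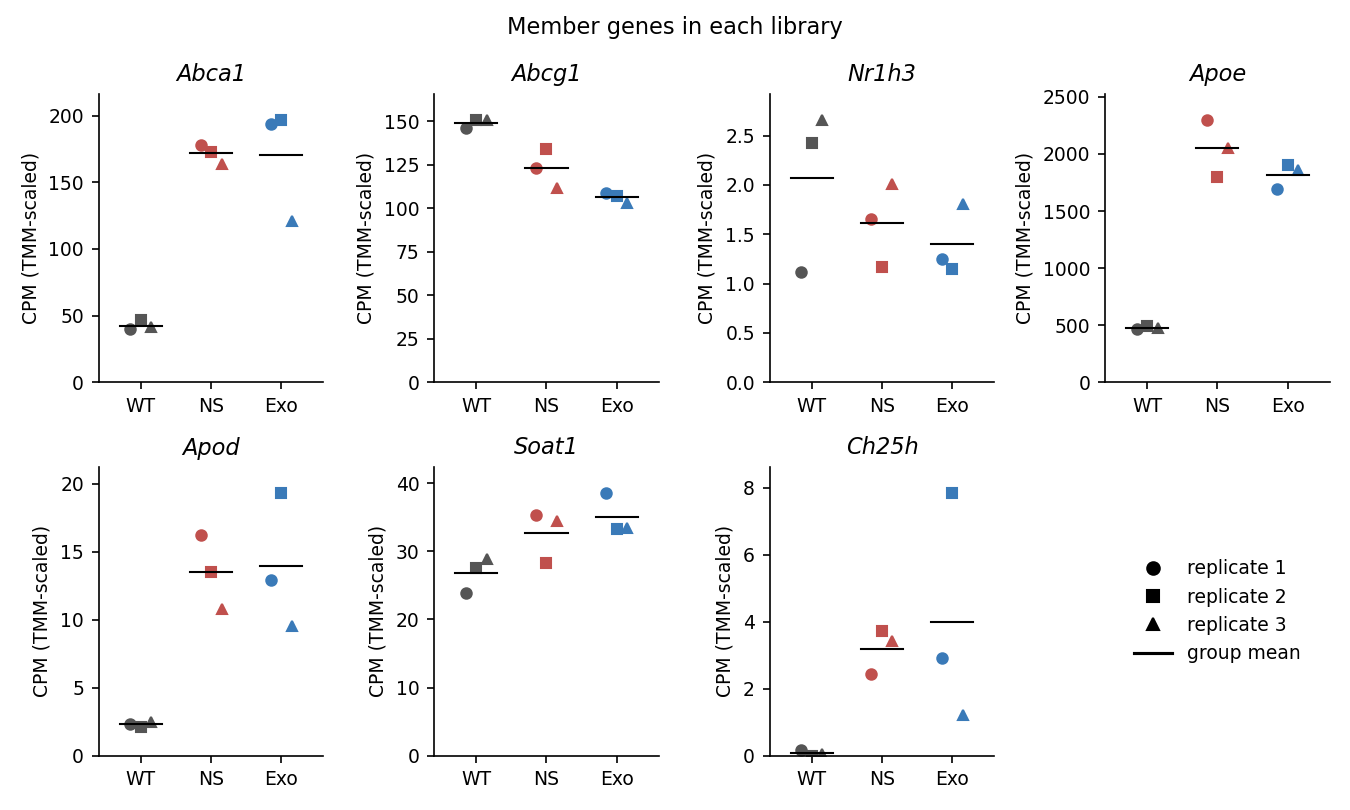
TMM-scaled CPM (y axis from 0) of the 7 genes in each of the 9 libraries, with the symbol shape giving the replicate and the bar the group mean. Abca1, Apoe, Apod and Ch25h are higher in every rd10 library than in any WT library, Abcg1 is lower, and MSC-EVs (Exo) replicate 3 has the lowest Abca1 of the rd10 libraries at 121 CPM.

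Apoe lies on chromosome 7 from 19696109 to 19699188 on the minus strand and was by far the most abundant of the 7 genes. WT libraries were at 463, 491 and 476 CPM. NS-treated rd10 was at 2300, 1800 and 2050 CPM, and MSC-EVs-treated rd10 at 1690, 1900 and 1860 CPM. The rd10 libraries lay well above WT and overlapped each other. Apoe rose by a log2 fold change of 2.1 in NS-treated rd10 (SE 0.09, 4.3-fold, adjusted p = 3.32e-09) and of 1.94 in MSC-EVs-treated rd10 (SE 0.06, adjusted p = 5.74e-08). The rd10 groups differed by -0.17 (95% interval -0.38 to 0.04, adjusted p = 0.339).

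Apod encodes a lipocalin that carries small lipids and is known as a glial stress gene. It lies on chromosome 16 from 31296192 to 31314808 on the minus strand. WT libraries were at 2.33, 2.1 and 2.51 CPM. NS-treated rd10 was at 16.2, 13.5 and 10.8 CPM, and MSC-EVs-treated rd10 at 12.9, 19.3 and 9.54 CPM. The WT libraries were close together, and both rd10 groups were high and spread. Apod rose by a log2 fold change of 2.55 in NS-treated rd10 (SE 0.18, 5.86-fold, adjusted p = 1.95e-07) and of 2.59 in MSC-EVs-treated rd10 (SE 0.28, adjusted p = 0.000123). The rd10 groups differed by 0.03 (95% interval -0.64 to 0.7, adjusted p = 0.971). MSC-EVs replicate 2 held the highest value, and without it the difference was -0.28 (adjusted p = 0.429).

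Soat1 lies on chromosome 1 from 156424525 to 156474331 on the minus strand. WT libraries were at 23.8, 27.6 and 28.8 CPM, NS-treated rd10 at 35.3, 28.2 and 34.4 CPM and MSC-EVs-treated rd10 at 38.5, 33.3 and 33.4 CPM. NS replicate 2 fell within the WT range, and the MSC-EVs libraries were all above WT. Soat1 rose by a log2 fold change of 0.29 in NS-treated rd10 (SE 0.1, adjusted p = 0.0245) and of 0.4 in MSC-EVs-treated rd10 (SE 0.1, adjusted p = 0.00558). The rise in NS-treated rd10 did not pass the test without WT replicate 1 (adjusted p = 0.107), NS replicate 1 (0.0873) or NS replicate 3 (0.0764). It was 0.03 when the libraries were scaled to 32 markers of inner retinal neurons in place of TMM (adjusted p = 0.826), a setting chosen after seeing the data.

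On the FPKM scale Soat1 was at 3.77, 4.8 and 3.79 in WT, at 7.44, 4.99 and 6.68 in NS-treated rd10 and at 9.9, 7.86 and 7 in MSC-EVs-treated rd10. The FPKM values were thus further apart than the counts. A count divided by its FPKM and by the library's total gives the transcript length the authors' estimate implies. For Soat1 this was 5820, 5355 and 6973 bases in WT and 4930, 5932 and 5415 bases in NS-treated rd10. It was 4048, 4401 and 4882 bases in MSC-EVs-treated rd10, below every NS and WT library. Of 11112 genes with at least 100 counts and 0.5 FPKM in every library, 13.8% had a lower implied length in every MSC-EVs library than in any NS library, and 0.306% did so by as much as Soat1. The last share takes Soat1's own change as its cut, so it is a description and not a test. Protein-coding transcripts of Soat1 in GENCODE M21 run from 366 to 8371 bases. The implied length of Abca1, with 1 coding transcript of 10262 bases, stayed between 10257 and 10274 bases in all libraries. Which transcripts the estimate used is not given in the files.

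**Figure D2:**
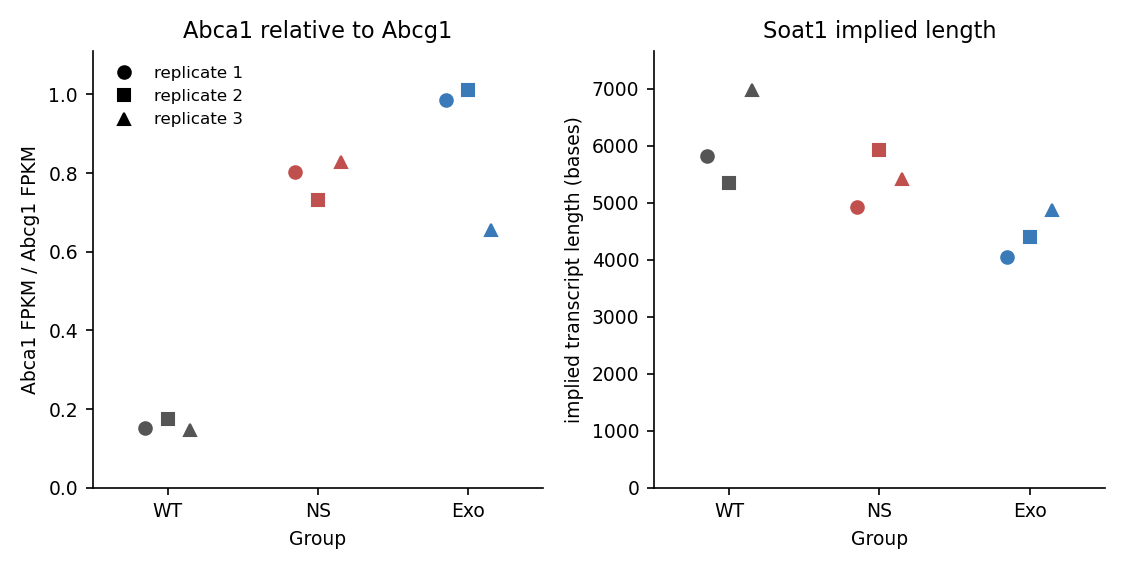
Left, the FPKM of Abca1 divided by that of Abcg1 in each library. Right, the transcript length of Soat1 in bases implied by its count and FPKM. Both y axes start at 0 and symbol shapes give the replicate; the ratio is 0.148 to 0.175 in WT and 0.656 to 1.01 in rd10, and the implied length is lowest in the 3 MSC-EVs (Exo) libraries.

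Ch25h, a gene of 1 exon, lies on chromosome 19 from 34473778 to 34475164 on the minus strand. An antisense non-coding gene, Gm26902, shares 159 exon bases with it in GENCODE M21, and the sources used here do not give the strand setting of the counting. WT libraries held 4, 0 and 1 counts. NS-treated rd10 libraries held 72, 76 and 75 counts (2.43, 3.72 and 3.43 CPM), and MSC-EVs-treated rd10 libraries 70, 184 and 78 counts (2.92, 7.84 and 1.22 CPM). Ch25h was near 0 in WT, even in NS-treated rd10 and uneven in MSC-EVs-treated rd10. The ratio of summed counts, scaled by library size, was 40.1 for NS against WT (exact 95% interval for counting error 16.9 to 125) and 38.5 for MSC-EVs against WT (16.3 to 119). In edgeR's test, which uses the spread between libraries, the NS group was 38.3-fold higher (95% interval 17.9 to 82.2, adjusted p = 2.84e-06). The MSC-EVs group was 48-fold higher there (95% interval 6.47 to 357, adjusted p = 0.00846). Leaving out 1 library moved the fitted log2 fold change between 4.69 and 6.77 for NS (6.77 without WT replicate 1, which held 4 of the 5 WT counts). For MSC-EVs it moved between 4.61 without MSC-EVs replicate 2 and 7.14 without WT replicate 1, and it passed the test each time. The rd10 groups differed by a log2 value of 0.29 (95% interval -1.38 to 1.96, adjusted p = 0.854). Leaving out MSC-EVs replicate 2 gave -0.68 (adjusted p = 0.328), and leaving out MSC-EVs replicate 3 gave 0.76 (adjusted p = 0.368).

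Ordered by FPKM in WT, the genes ran from Apoe (314 ± 10.9, SD, n = 3) through Abcg1 (24.2 ± 0.89), Soat1 (4.12 ± 0.589), Abca1 (3.83 ± 0.361), Apod (1.55 ± 0.02) and Nr1h3 (1.08 ± 0.449) to Ch25h (0.05 ± 0.0624). Soat1 and Abca1 overlapped, and the other neighbours did not. In NS-treated rd10 the order was Apoe (1530 ± 178), Abcg1 (22.3 ± 1.92), Abca1 (17.5 ± 0.588), Apod (10.7 ± 2.2), Soat1 (6.37 ± 1.25), Ch25h (2.41 ± 0.522) and Nr1h3 (0.95 ± 0.261), with no overlap between neighbours. Apod had moved above Soat1, and Ch25h above Nr1h3. The MSC-EVs group had the same order of means as NS, but there Abcg1 overlapped Abca1 (17.2 ± 4.47), Abca1 overlapped Apod (10.4 ± 3.71), Apod overlapped Soat1, and Ch25h (2.99 ± 2.58) overlapped Nr1h3.

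In the comparison of NS-treated rd10 with WT, 6 of the 7 genes passed the test, 5 higher and 1 lower. Passing was common there, since 61.3% of the 14644 genes tested did so, 31.2% higher and 30.1% lower. At least 2-fold, 4 of the 7 genes were higher and none lower, where 12.7% of all genes passed, 9.16% higher and 3.56% lower. Every NS library was above every WT library for 4 of the genes and below for 1, where 33.6% and 33.4% of all genes showed this. The median log2 fold change of the 7 genes was 2.01 and that of all genes 0.005. With the inner neuron scaling the median of all genes shifted to -0.25, and of the genes called 2374 were higher and 6732 lower, in place of 4562 and 4410. On the FPKM scale in limma, 6034 were higher and 2403 lower, and the median of all genes was 0.14. Abca1 (log2 fold change 1.76), Apoe (1.85), Apod (2.3) and Ch25h (5.03) kept their calls and direction with the inner neuron scaling, as did Abcg1 (-0.53).

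In the comparison of MSC-EVs-treated rd10 with WT, 6 of 7 genes passed, 5 higher and 1 lower, where 55.5% of 14623 genes passed, 28.3% higher and 27.2% lower. At least 2-fold, 4 were higher, where 12.2% of all genes passed, 9% higher and 3.2% lower. With the inner neuron scaling 5 of the 7 passed, Soat1 no longer, the median of all genes shifted to -0.18, and 2553 genes were higher and 5835 lower in place of 4137 and 3980. On the FPKM scale in limma, 5497 were higher and 2221 lower. This comparison shares its WT libraries with the former one. In the comparison of the rd10 groups none of the 7 passed and 1 (Abcg1) had an unadjusted p under 0.05, with edgeR and with DESeq2 alike, where 1.16% of 14765 genes passed. The intervals of Abca1, Nr1h3, Apod and Ch25h were wide, and a p that misses the threshold does not show that the groups were alike.

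**Figure D3:**
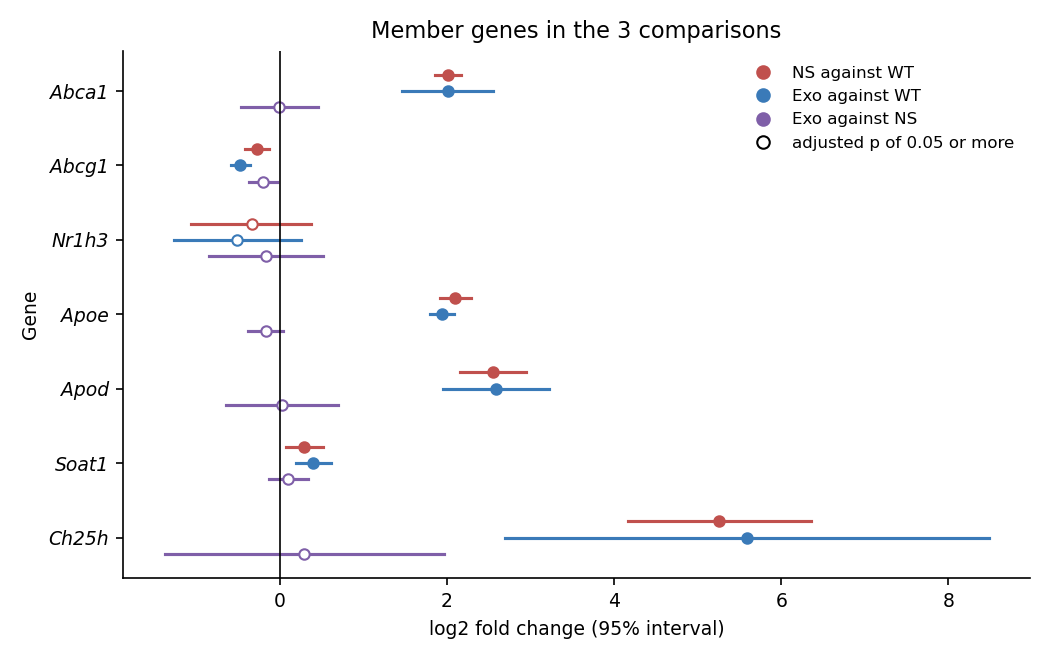
Log2 fold change (x axis) of each of the 7 genes with its 95% interval in the 3 comparisons, from edgeR's quasi-likelihood test on 6 libraries each; open circles have an adjusted p of 0.05 or more. Both rd10 groups differ from WT in the same 6 genes, where 61.3% (NS) and 55.5% (MSC-EVs) of all genes passed. Every comparison of the rd10 groups has an open circle near 0 on a scale where Ch25h reaches 5.59. Between these groups 1.16% of all genes passed.

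Lists of related genes, 111 genes in 8 lists, were examined in the same fits. Of the 78 tested in NS against WT, 59 passed, 37 higher and 22 lower, where 61.3% of all genes passed, 31.2% higher and 30.1% lower. Counts of the lists below are to be read against these shares, and nothing is called particular to a list. The median log2 fold change was 0.23. At least 2-fold, 19 were higher and 3 lower, where 9.16% and 3.56% of all genes were. With the inner neuron scaling 29 were higher and 30 lower, and in limma on log2(FPKM + 1) 40 were higher and 12 lower. None of 79 passed between the rd10 groups, where 1.16% of all genes did. An unadjusted p under 0.05 was found for 12 of them and for 20.2% of all genes, and 4 passed in DESeq2, as did 6.41% of all genes. In the comparison of MSC-EVs-treated rd10 with WT, 33 of 80 rose and 20 fell, where 28.3% of all genes were higher and 27.2% lower. These counts were 27 and 26 with the inner neuron scaling and 38 and 12 in limma on FPKM.

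Of the LXR partners and regulators, 7 of 10 tested passed in NS against WT, 2 higher and 5 lower (0 and 7 with the inner neuron scaling, 3 and 2 in limma on FPKM). Rxra, the retinoid X receptor that pairs with LXR, was at 79.9, 73 and 79 CPM in WT and 57.8, 51.1 and 48.5 CPM in NS-treated rd10. It fell by 0.56 on the log2 scale (adjusted p = 4.71e-05). Insig1, which holds back the SREBP factors of cholesterol synthesis, fell by 0.52 (adjusted p = 8.92e-05).

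Of 9 other known LXR target genes tested, 5 rose and 2 fell (4 and 3 with the inner neuron scaling, 6 and 0 in limma on FPKM). Smpdl3a, a phosphodiesterase, rose by 1.32 from 4.67 to 5.71 CPM in WT to 10.9 to 15.2 CPM in NS-treated rd10 (adjusted p = 1.05e-05). Lpcat3, which remodels phospholipids, rose by 1.21 (adjusted p = 3.9e-07), Lpl, lipoprotein lipase, by 0.91 (adjusted p = 3.07e-06) and the desaturase Scd2 by 0.48 (adjusted p = 8.74e-06). Srebf1, the factor of fatty acid synthesis, was at 86.7, 87.7 and 97.3 CPM in WT and 85.9, 96.9 and 84.4 CPM in NS-treated rd10, with a log2 difference of -0.02 (adjusted p = 0.773). Mylip, a ubiquitin ligase, fell by 0.35 (adjusted p = 0.00262), a call lost in limma on FPKM (-0.15, adjusted p = 0.111). Of the 9 targets, 2 rose by 2-fold or more, and neither reached the log2 fold change of Abca1.

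Among the other ABC transporters of the A and G subfamilies, 2 rose and 5 fell of 12 tested (1 and 9 with the inner neuron scaling, 3 and 5 in limma on FPKM). Abca4, the retinoid transporter of photoreceptor outer segments, fell by 1.83 from 1500 to 1620 CPM in WT to 361 to 480 CPM in NS-treated rd10 (adjusted p = 1.82e-07). Abca13 fell by 1.69 (adjusted p = 7.16e-07) and Abca6 by 1.04 (adjusted p = 4.32e-05). Abca7, the nearest relative of Abca1, fell by 0.55 (adjusted p = 7.83e-05). Abca9 rose by 1.13 (adjusted p = 0.0015). In this fit no other tested transporter of these subfamilies had a log2 fold change as large in size as that of Abca1. With the inner neuron scaling Abca4 (-2.08) and Abca13 (-1.95) were larger in size than Abca1 (1.76).

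Other apolipoproteins and their modifiers rose in 4 of 7 tested and fell in 1. Clu (apolipoprotein J) was at 608, 620 and 603 CPM in WT and at 1860, 1760 and 1970 CPM in NS-treated rd10. It rose by 1.61 (SE 0.06, adjusted p = 1.71e-09) and was at 1920, 2040 and 1890 CPM in MSC-EVs-treated rd10. Apoc1, a neighbour of Apoe in the same gene cluster, rose by 3.34 (adjusted p = 2.06e-07). Apoc2, of the same cluster, had 0 counts in the WT libraries and 34, 19 and 15 in NS-treated rd10, at least 20.4-fold higher against a floor of 3 counts over the WT group. Lcat, which esterifies cholesterol in lipoproteins, rose by 1.61 (adjusted p = 1.49e-05). The other 11 genes of the list did not pass the filter on low counts, Apoa1 and Apob among them.

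Receptors for lipoproteins and lipids split by kind. Of 15 tested, 9 rose and 4 fell, with the same counts under the inner neuron scaling and 9 and 2 in limma on FPKM. Trem2, a microglial receptor that binds apolipoproteins and lipids, was at 1.08, 1.52 and 1.05 CPM in WT and at 11.6, 12.3 and 11.7 CPM in NS-treated rd10. It rose by 3.27 (adjusted p = 1.76e-08). The scavenger receptors Msr1 (3.27, adjusted p = 0.000177) and Stab1 (2.85, adjusted p = 9.63e-08) and the phagocytic receptor Mertk (1.14, adjusted p = 6.23e-06) also rose.

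Genes of cholesterol esters, lysosomal egress and lipid droplets rose in 9 and fell in 5 of 16 tested (7 and 6 with the inner neuron scaling, 9 and 2 in limma on FPKM). The droplet coat genes Plin4 (3.36, adjusted p = 1.78e-06), Plin2 (1.38, adjusted p = 5.38e-06) and Plin3 (1.31, adjusted p = 1.34e-06) rose, as did Tspo (2.47, adjusted p = 1.12e-06), a mitochondrial membrane protein. The partners of lysosomal cholesterol egress differed. Npc2 rose by 1.12 from 42.2 to 44 CPM in WT to 87.8 to 96.6 CPM (adjusted p = 3.02e-08), and Npc1 fell by 0.38 from 128 to 134 CPM to 93.1 to 107 CPM (adjusted p = 0.000257). The lysosomal acid lipase gene Lipa rose by 0.65 (adjusted p = 0.00034).

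In the oxysterol list all 5 genes tested in NS against WT rose (3 with the inner neuron scaling, 5 in limma on FPKM). In MSC-EVs-treated rd10 against WT, 2 of 7 tested rose and none fell, 28.6% called against 55.5% of all genes. Hsd3b7 (0.79, adjusted p = 0.000434), Cyp27a1 (0.74, adjusted p = 0.000551) and Cyp39a1 (0.7, adjusted p = 0.00135) are enzymes of oxysterol and bile acid synthesis. Cyp46a1, the neuronal cholesterol 24-hydroxylase, rose by 0.41 (adjusted p = 0.0093), a call lost with the inner neuron scaling (0.17, adjusted p = 0.32). Gpr183, the receptor of an oxysterol made from 25-hydroxycholesterol, had 5 counts over the WT libraries and 40 over NS-treated rd10, a scaled ratio of 7.18 (exact 95% interval for counting error 2.84 to 23.3). It did not pass the filter in that comparison. None of the enzymes rose as far as Ch25h. Cyp27a1 was at 9.96, 11.3 and 11.3 CPM in NS-treated rd10 and at 6.8, 6.65 and 7.5 CPM in MSC-EVs-treated rd10. That difference, -0.63 (SE 0.13), had an adjusted p of 0.0521 in edgeR's test, which ranged from 0.00636 to 0.223 over 18 alternatives and was under 0.05 in 8 of them.

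Of the other lipocalins, relatives of Apod, 1 of 4 tested passed in NS against WT. Lcn2, an acute-phase protein of reactive glia, was at 6.15, 6.13 and 5.16 CPM in WT and at 190, 389 and 134 CPM in NS-treated rd10, a rise of 5.35 (adjusted p = 0.00194). It was at 506, 342 and 144 CPM in MSC-EVs-treated rd10.

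**Figure D4:**
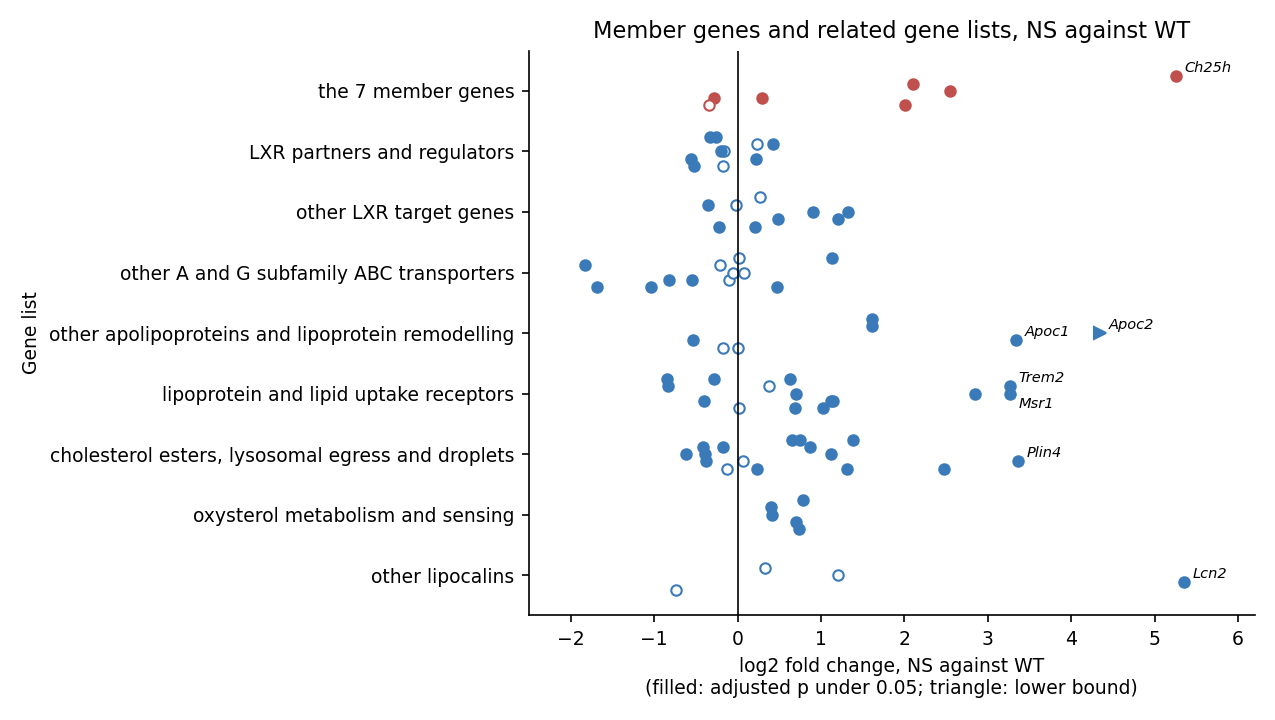
Log2 fold change of NS-treated rd10 against WT (x axis) for the 7 genes (red) and the tested genes of the 8 related lists (blue), filled where the adjusted p is under 0.05; the triangle marks Apoc2 at its lower bound. Ch25h and Lcn2 lie farthest to the right, and the other LXR target genes lie on both sides of 0 in this fit (6 higher and 0 lower passed in limma on FPKM).

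Markers of cell types also differed between rd10 and WT libraries. All 18 microglia and macrophage markers rose in NS-treated rd10, with sums of 108, 101 and 105 CPM in WT, 831, 755 and 667 CPM in NS-treated and 810, 985 and 571 CPM in MSC-EVs-treated rd10. Ctss was the most abundant by mean FPKM over the 9 libraries, the measure used for each list, and P2ry12, Tmem119 and Cx3cr1 were above 0 in every library (P2ry12 at 2.81 to 9.12 CPM). Among the MSC-EVs libraries, replicate 3 had the lowest and replicate 2 the highest of these sums, as for Ch25h, Abca1 and Apod. Among the NS libraries replicate 1 had the highest and replicate 3 the lowest sum, as for Abca1 and Apod, while Ch25h was lowest in replicate 1. Apoe, Soat1, Abcg1 and Nr1h3 did not follow the order of these sums in either rd10 group. Apoe was lowest in MSC-EVs replicate 1 and in NS replicate 2. The part of these markers in the members' values was not tested.

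All 14 rod markers fell, and their sum was at 0.199 to 0.283 of the WT mean in NS-treated rd10. Nrl, a transcription factor of rods, went from 1780 to 1870 CPM in WT to 317 to 440 CPM in NS-treated rd10. Of the Müller glia markers 11 of 12 rose, with sums of 1.2 to 1.38 times WT in NS-treated and 1.02 to 1.1 times in MSC-EVs-treated rd10. Glul, their most abundant gene, was at 2610 to 2800 CPM in WT and 2090 to 3080 CPM in NS-treated rd10, and Rlbp1 rose by 0.46 (adjusted p = 0.000368). Of the astrocyte and gliosis markers 8 of 9 rose, with sums of 5.31 to 6.38 times WT in NS-treated and 6.24 to 8.72 times in MSC-EVs-treated rd10. Serpina3n was the most abundant, and Gfap was at 42.7 to 49.7 CPM in WT against 206 to 380 CPM. Apoe and Apod rose beside these glial lists, whose part was not tested.

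Lists of other tissues were less even. Of the fibroblast markers 6 of 9 tested rose, with sums of 2.04 to 2.51 times WT, Igf2 the most abundant over all libraries (Fmod, named after its values were seen, was above it in the NS libraries) and Dcn at 0.269 to 1.18 CPM. Of the pigment epithelium markers 5 of 13 rose, with sums of 91, 143 and 128 CPM in WT, 375, 117 and 262 CPM in NS-treated and 135, 123 and 279 CPM in MSC-EVs-treated rd10, Ttr the most abundant and Rpe65 at 3.33 to 21.7 CPM. NS replicate 2 had the lowest of the NS sums of this list, and also the lowest Apoe, at 1800 CPM, while its Abca1 was between the other NS libraries. Among the MSC-EVs libraries it was the other way, and replicate 2 had the lowest sum and the highest Apoe, at 1900 CPM. The part of this list in the members' values was not tested. None of 9 lens and cornea markers passed, and Cryaa, the most abundant, was at 4.92 to 77.1 CPM. Endothelial and pericyte markers rose in 9 of 12 (Kdr the most abundant, Cldn5 at 8.93 to 15.3 CPM), and 1 of 5 erythrocyte markers fell (Hbb-bs the most abundant).

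Of the neuronal lists, cone markers rose in 3 and fell in 3 of 10, with Opn1sw the most abundant and Arr3 at 95.7 to 109 CPM in WT against 42.5 to 84.4 CPM. Bipolar markers (Otx2 the most abundant) rose in 5 and fell in 2 of 10, amacrine markers (Gad1) rose in 6 of 8, horizontal markers (Septin4) in 4 of 6 and ganglion cell markers (Nefl) in 5 of 8. These last 4 lists, 32 genes, are those held constant in the inner neuron scaling. No marker of any list was at 0 in all 9 libraries.

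**Figure D5:**
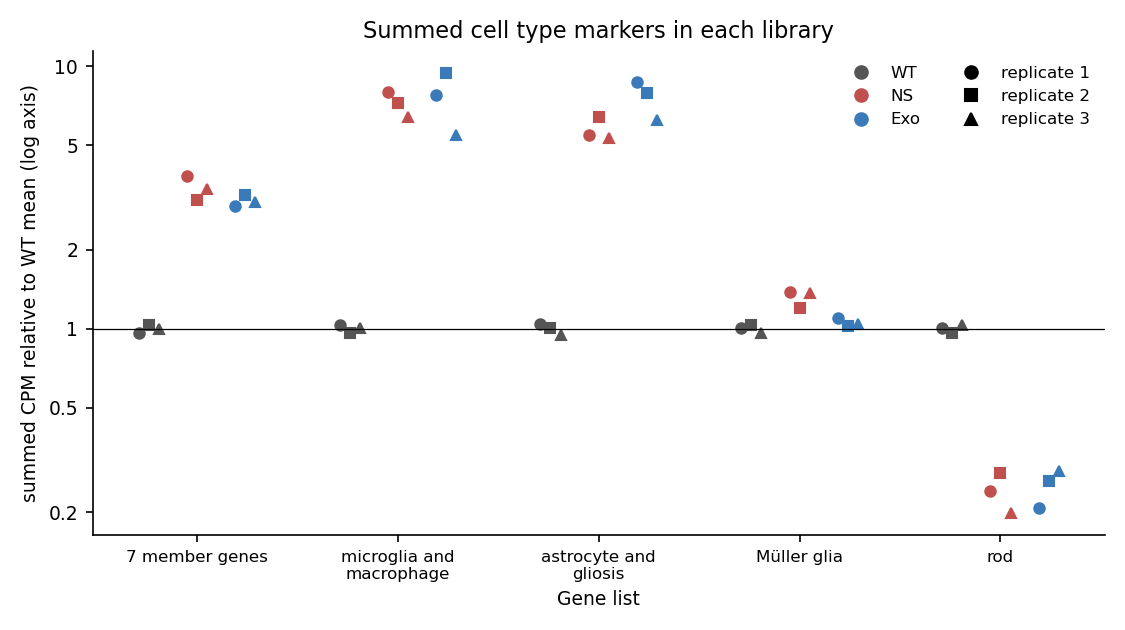
Summed CPM of the 7 genes and of 4 marker lists in each library, relative to the WT mean, on a log axis; colours give the group and shapes the replicate. The sum of the 7 genes, most of it Apoe, is at 2.92 to 3.8 times WT in the 6 rd10 libraries, microglia and macrophage markers at 5.46 to 9.43 times, and rod markers at 0.199 to 0.288 times.

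The genes whose log2(CPM + 1) followed each of the 7 most closely over the 9 libraries are given as a description, since the 9 libraries fall into WT and rd10 samples and 12.5% of 11829 genes reached a Pearson r above 0.9 with Abca1. For Abca1 they were Gusb (0.999), Ifi35 (0.999) and Tor3a (0.996), and for Apoe they were Slc7a5 (0.994), Gpnmb (0.993) and Vit (0.992). For Apod they were Tgfb1 (0.998), Ly6e and Tnfrsf1b (0.995 each), and for Ch25h they were Sh3pxd2b (0.992), Adamts1 (0.99) and Csnk1a1 (0.989). Gpnmb was at a mean of 6.62 CPM in WT and 177 CPM in NS-treated rd10. For Abcg1, with 3.25% of genes above 0.9, they were Rab4a (0.981), Slc1a5 (0.977) and Ndufb9 (0.975). For Soat1 they were Sntg1 (0.97), Zfp141 (0.965) and Pcdhga6 (0.952), and for Nr1h3 they included Zfp286 (0.908) and Slc39a13 (0.89).

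Among the 7 genes, Abca1 had a Pearson r of 0.971 with Apoe, 0.983 with Apod and 0.933 with Ch25h over the 9 libraries, and of -0.813 with Abcg1. Soat1 had 0.793 with Abca1, and Nr1h3 had -0.471 with Abca1. These values rest on the gap between WT and rd10 and describe no relation within a group.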

How the data were processed

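Poly(A)-selected RNA from 9 retinal libraries was sequenced, and the authors deposited 1 table with a count and an FPKM column for each library. The estimated counts, with decimals in 9.16% to 11.7% of genes, and the FPKM values were made by the authors; the submitters' processing notes name fastp, Bowtie2, HISAT2, StringTie 1.3.1 and RSEM without their roles. The genome build, annotation and strand setting are not given in the sources used here. The wild-type libraries were compared with each rd10 group, and the rd10 groups with each other.

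Counts were rounded to whole numbers. Genes were filtered with filterByExpr, scaled by TMM and tested with edgeR's quasi-likelihood test (edgeR 4.0.16, R 4.3.3) on the 6 libraries of each pair of groups, with Benjamini-Hochberg adjustment at 0.05. The planned test assumed raw counts. limma 3.58.1 was used on log2(FPKM + 1) and log2(FPKM + 0.1), and DESeq2 1.42.0 as an alternative. Of 22337 genes, 3967 were at 0 in every library, and 22 rows carried a repeated symbol. Exact intervals of count ratios cover counting error only. The tests across genes were checked on simulated data. Other alternatives were other normalizations and filters, all 9 libraries in 1 fit, a replicate block, Y-linked expression as a covariate and leaving out each library. The scaling to 32 markers of inner retinal neurons was added after seeing the data.

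The members and lists were chosen with earlier results of these data known. Named were all 7 members. Of each related list the up to 4 genes with the largest change among those past the threshold were named, with Nr1h2, Srebf1, Mylip, Clu, Npc1, Npc2, Lipa, Trem2, Abca7, Gpr183 and Cyp46a1. Of each marker list the most abundant gene by FPKM and fixed defining markers were named, and for each member the 3 genes with the highest Pearson r among those with a mean of at least 5 CPM. Positions are from GENCODE M21 (GRCm38), by symbol, and are not the authors' coordinates. Of stretches of 50 bases, at most 0.506% (Soat1) of a member's exons were shared with another gene. Some genes that this rule names are not reported here.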

Additional observations from a re-analysis of the deposited data

How the results depend on the processing

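In the comparisons with WT, Abca1, Apoe, Apod and Ch25h kept their direction and stayed past the threshold in each alternative that gave a value (Ch25h was not tested with at least 10 counts in every library); Abcg1 did so except in limma on FPKM for NS (-0.12, adjusted p 0.192 to 0.228). Soat1 missed the threshold in NS against WT as given above, and in MSC-EVs against WT with Y-linked expression as a covariate (0.32, adjusted p = 0.0549) and with the inner neuron scaling (0.22, adjusted p = 0.116). Leaving out 1 library, 5 to 6 of the 7 genes passed in NS against WT, 6 in MSC-EVs against WT and 0 between the rd10 groups. Related list genes passing were 55 to 62, 44 to 54 and 0 to 5 in these 3 comparisons, with 5 reached without MSC-EVs replicate 2; requiring a 2-fold change left 22 in each comparison with WT. Between the rd10 groups the differences of Abca1, Nr1h3, Apod and Ch25h changed sign in some alternatives, and those of Apod and Ch25h were not always small. None of them was past the threshold in either direction unless stated. Abca1 was 0.09 with the inner neuron scaling and -0.12 to 0.19 leaving out 1 library. Nr1h3 was 0.17 with the Y-linked covariate and -0.43 to 0.01 leaving out 1 library. Apod was 0 with upper-quartile normalization, -0.06 in limma on log2(FPKM + 1) with or without a filter, -0.07 with a pseudocount of 0.1, -0.5 with the Y-linked covariate and -0.28 to 0.25 leaving out 1 library. Ch25h was -0.01 with a replicate block, -0.05 in limma with a pseudocount of 0.1, -1.38 with the Y-linked covariate and -0.68 to 0.76 leaving out 1 library. With the Y-linked covariate 1 member, Abca1, passed between the rd10 groups; that covariate separates MSC-EVs replicates 1 and 2 from the other libraries. Of the related genes, 0 passed between the rd10 groups in the main test, 1 with upper-quartile normalization and in limma with either pseudocount, 2 without a filter, 3 with all 9 libraries in 1 fit, 3 with the replicate block and 4 in DESeq2. Those 4 were Ppard, Ncor1, Cyp27a1 and Lrp2, of which Ppard, Ncor1 and Lrp2 are named after their values were seen. Over all genes, 172 passed between the rd10 groups (78.5% of them higher), 947 in DESeq2 (67.7%), 1026 with all 9 libraries in 1 fit (62.2%), 403 with the block, 154 with upper-quartile normalization (63%), 177 in limma on FPKM (54.8%), 0 in limma without a filter, 185 with the inner neuron scaling (98.4%), 676 without MSC-EVs replicate 2, 32 without NS replicate 2, and 0 without MSC-EVs replicate 1 or NS replicate 3. Same-numbered libraries share only a number in the labels, which name no litters, while the paper states that rd10 littermates received MSC-EVs or NS. Correlations of their deviations from the group means were -0.07 to 0.145 for NS and WT, 0.055 to 0.229 for the rd10 groups and 0.047 to 0.083 for MSC-EVs and WT. For libraries with different numbers they were -0.172 to 0.181, -0.23 to 0.024 and -0.042 to -0.018 in the same order. In the replicate block fits 6, 0 and 6 members passed in NS against WT, MSC-EVs against NS and MSC-EVs against WT. The causes of these changes were not tested. Nr1h3 and Ch25h rested on few counts, 24 to 116 and 0 to 184 per library.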
